A study of Mus musculus with 319 samples.

Results

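The cells described here are single sorted thymic tuft cells in which reads of Aire were counted. They were selected on that count: of 300 tuft cells kept, the 50 with 5 or more Aire reads were taken as Aire-positive, the 235 with 0 Aire reads were the cells they were compared with, and the 15 with 1 to 4 reads were put in neither class. The lowest Aire-positive cell had 8 Aire reads and the highest cell outside the class had 4. Because Aire reads chose the cells, the Aire values below are a description and carry no test.

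Full-length RNA of single mouse thymic cells was sequenced by Smart-seq2, with 1 cell in each well of a plate. All cells came from mice carrying Flare25, a reporter inserted at Il25 and present here in both copies, and were taken from the EPCAM+, Flare25+ and MHCIIlo gate after cells positive for UVBlue, CD45 or CD11c had been excluded. Wild-type cells (strain C57BL/6.Il25, Flare25/Flare25) formed 3 sets, called June5, June29 and batch 2, and cells of the Aire-/- genotype (strain C57BL/6.Il25.Aire, Flare25/Flare25 Aire-/-) formed a further set of batch 2. The mice were naive, of mixed sex and 6 weeks old (1 Aire-/- well was labelled 5 weeks), and the thymi of several mice were pooled for a sort. The labels name no animal, so a set was the unit of every comparison, and a p-value measures only the spread between these 4 sets.

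Kept cells had 10000 or more gene reads, 1000 or more genes and at most 20% mitochondrial reads, which left 29, 87, 89 and 95 cells in the June5, June29, batch 2 wild-type and Aire-/- sets. Median depth was 539655, 1150167, 566923 and 634558 gene reads per cell, over a range from 45266 to 2927690. The sets did not show the mixed sex of their labels equally. No cell of the Aire-/- set was above 4 reads of Y-linked genes and 85 of its 95 cells had 5 or more Xist reads, whereas in June29 no cell had Xist without Y-linked reads and 66 of 87 had Y-linked reads without Xist. The batch 2 wild-type set held 42 Xist-only and 30 Y-only cells. Over all cells, the genotype and this difference cannot be told apart.

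Aire is a nuclear protein of medullary thymic epithelial cells that switches on genes otherwise restricted to peripheral tissues, so that developing T cells meet their products. It is turned on downstream of the receptor RANK and of NF-kB signalling, in cells with high MHC class II and costimulatory molecules. Thymic tuft cells are a separate medullary epithelial type that depends on the transcription factor Pou2f3, uses the taste transduction machinery and makes the cytokine Il25. Dnmt3l is a catalytically inactive partner of the de novo DNA methyltransferases, and its gene is the head-to-head neighbour of Aire.

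On GRCm38, Aire (ENSMUSG00000000731.15) lies on the minus strand of chromosome 10, from 78030022 to 78043610, and Dnmt3l (ENSMUSG00000000730.13) on the plus strand, from 78041947 to 78063622. The annotated spans overlap over 1664 bases, of which 67 are exonic in both genes, or 1.75% of the exonic bases of Aire and 2.24% of those of Dnmt3l. The strand setting of the authors' counting is not given in the sources used here, so reads from the shared bases could be given to either gene. The windows upstream of both starts are printed because the overlapping pair is the one whose reads divide the Aire-positive cells by set. Each window is the 250 bases before a start listed by RefSeq on GRCm38.p6, on the gene's own strand. Capitals mark TATAAA, and CCAAT on either strand (ATTGG is CCAAT on the other strand).
Aire, chr10:78043611-78043860, minus strand: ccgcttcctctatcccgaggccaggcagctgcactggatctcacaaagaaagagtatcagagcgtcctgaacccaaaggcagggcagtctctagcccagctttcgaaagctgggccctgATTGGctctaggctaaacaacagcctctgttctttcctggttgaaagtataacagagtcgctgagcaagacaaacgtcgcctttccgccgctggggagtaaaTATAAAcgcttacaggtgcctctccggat
Dnmt3l, chr10:78042037-78042286, plus strand: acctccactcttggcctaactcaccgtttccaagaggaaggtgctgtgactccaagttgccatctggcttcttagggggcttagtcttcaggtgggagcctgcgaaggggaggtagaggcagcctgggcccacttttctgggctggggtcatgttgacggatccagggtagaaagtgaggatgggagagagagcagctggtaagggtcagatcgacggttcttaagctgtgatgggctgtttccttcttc

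The Aire window holds TATAAA from 29 to 24 bases before the start and, further upstream, a CCAAT on the other strand. Among the 32851 windows of that length in the RefSeq table, 12.4% hold TATAAA on either strand and 33.8% hold CCAAT. The Dnmt3l window holds neither set of letters and lies wholly within the annotated span of Aire, with 75 of its bases in Aire exons. The other Dnmt3l windows in the table, at 78049592 to 78049841 and 78055085 to 78055334, also hold neither.

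Aire-positive cells were found in every set, and most of them carried the Aire-/- label. They made up 5 of 29 June5 cells (17.2%, 95% Clopper-Pearson interval 5.85 to 35.8%), 7 of 87 June29 cells (8.05%, 3.30 to 15.9%), 7 of 89 batch 2 wild-type cells (7.87%, 3.22 to 15.5%) and 31 of 95 cells of the Aire-/- set (32.6%, 23.4 to 43%). Such intervals cover counting error only. The interval of the Aire-/- set lies above those of June29 and batch 2 wild type and overlaps that of June5, the smallest set. Each set is 1 pool, so the difference between genotypes was not tested.

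The Aire-/- set had the highest share at equal depth and on each plate. After each cell was thinned to 231697 gene reads, which left out 30 shallower cells (6, 2, 10 and 12 by set), 8.70%, 7.06%, 8.86% and 25.3% of cells still had 5 or more Aire reads, against 21.7%, 8.24%, 8.86% and 30.1% of the same cells unthinned. At that cut June5 therefore did not keep its place above the other wild-type sets. It did keep it at 1 or more Aire reads in the thinned cells, where the shares were 21.7%, 9.41%, 10.1% and 32.5%. At 5 or more thinned reads, the interval of the Aire-/- set (16.4 to 36%) overlapped those of June5 (1.07 to 28%) and batch 2 wild type (3.64 to 17.4%). It lay above that of June29 (2.63 to 14.7%). On the 2 plates of batch 2, the shares were 8.33% and 7.32% for wild-type cells and 29.2% and 36.2% for cells labelled Aire-/-. The intervals overlapped on plate 1 (2.32 to 19.98% and 16.95 to 44.1%) and not on plate 2 (1.54 to 19.9% and 22.7 to 51.5%). Among the Xist-only cells of batch 2, 4 of 42 wild-type cells (9.52%, 2.66 to 22.6%) and 27 of 85 cells of the Aire-/- set (31.8%, 22.1 to 42.8%) were Aire-positive. Those intervals overlap narrowly.

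**Figure D1:**
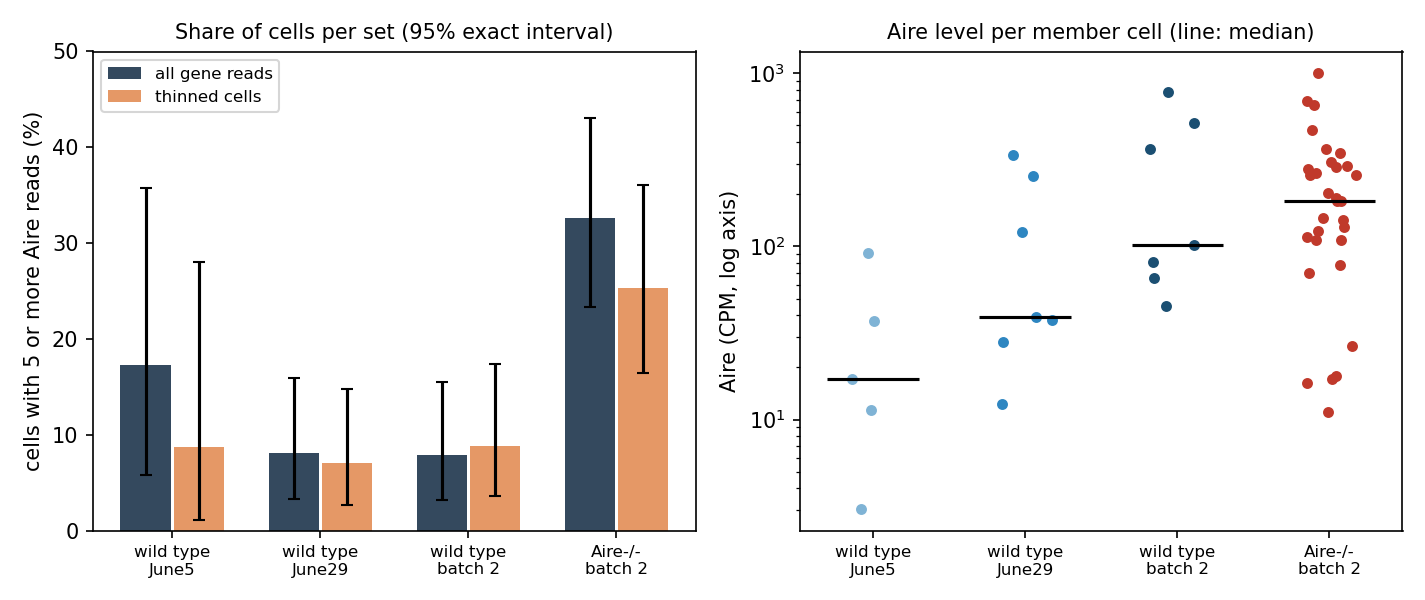
The left panel plots the share of kept cells with 5 or more Aire reads in each set (percent, bars from 0, error bars the 95% exact interval), and the right panel the Aire level of each Aire-positive cell (CPM, log axis, line at the median). The share is 32.6% in the Aire-/- set and 7.87% to 17.2% in the wild-type sets, and the levels of all 4 sets overlap.

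Aire levels in single Aire-positive cells spanned from 3.05 to 1001 CPM (counts of the gene scaled to the gene reads of the cell). The 5 June5 cells were at 3.05, 11.3, 17.1, 37.3 and 92.3 CPM. The lowest, median and highest were 12.3, 39.3 and 335.8 CPM in June29, 45.5, 101.4 and 783 CPM in batch 2 wild type, and 11, 183.3 and 1001 CPM in the Aire-/- set. The ranges of all sets overlap, while the medians order from June5 to the Aire-/- set. In reads, the highest cells of the 4 sets had 89, 387, 389 and 1556. That last cell, well 15 of the Aire-/- set, held 24.9% of the Aire reads of that set's positive cells.

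The Aire reads of the Aire-/- set do not check its label. The tables count reads per gene and not per exon, and a deletion that leaves part of the transcript would still give reads, so neither the deleted exons nor the protein can be judged from them. The name Aire-/- set is used throughout for its label alone. Wells into which 50 cells had been sorted gave 15.3 Aire CPM for wild type and 25.9 CPM for Aire-/-. Their genotype is taken from their titles and from the count table that holds each, while their label text names the table of the other genotype, so it is uncertain.

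Dnmt3l was read in Aire-positive cells of the Aire-/- set and in no Aire-positive cell of wild type. None of the 19 wild-type Aire-positive cells had a single Dnmt3l read, which allows a share of up to 15.8%, and no wild-type cell with 0 Aire reads had one, which allows up to 1.69%. Of the 31 Aire-positive cells of the Aire-/- set, 13 had 5 or more Dnmt3l reads (41.9%, 24.6 to 60.9%) and 16 had at least 1. Their summed Dnmt3l level was 152.3 CPM. The difference between genotypes was not tested, since the genotype has 1 such set.

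Within the Aire-/- set, Aire-positive cells with and without Dnmt3l overlapped in their Aire levels. The 13 cells with Dnmt3l held 6 to 898 reads of it (8.29 to 733.4 CPM), the highest in a cell with 424 Aire reads. Over the 31 cells, Spearman's rho between the Aire and Dnmt3l levels was 0.17, as a description of cells that share a pool. The median Aire level was 281.6 CPM in the 13 cells with Dnmt3l and 165.1 CPM in the 18 without. The cells with Dnmt3l were also the deeper ones, with a median of 912154 against 512174 gene reads, and the part of depth in this was not tested.

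Cells with 0 Aire reads and Dnmt3l were also present in that set. They numbered 5 of 57 (8.77%, 2.91 to 19.3%), with 54 to 468 Dnmt3l reads, and their summed level was 28.7 CPM against 152.3 CPM in the Aire-positive sum. A cell with 2 Aire reads, well 45, held 342 Dnmt3l reads. In wild type, the only Dnmt3l reads lay in 2 batch 2 cells with low Aire counts, well 87 with 2 Aire and 5 Dnmt3l reads and well 91 with 1 of each. Over the 4 sets the difference between the classes did not pass edgeR's quasi-likelihood test with Benjamini-Hochberg adjustment (adjusted p = 0.964), and the wild-type sums of Dnmt3l were 0 in both classes.

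**Figure D2:**
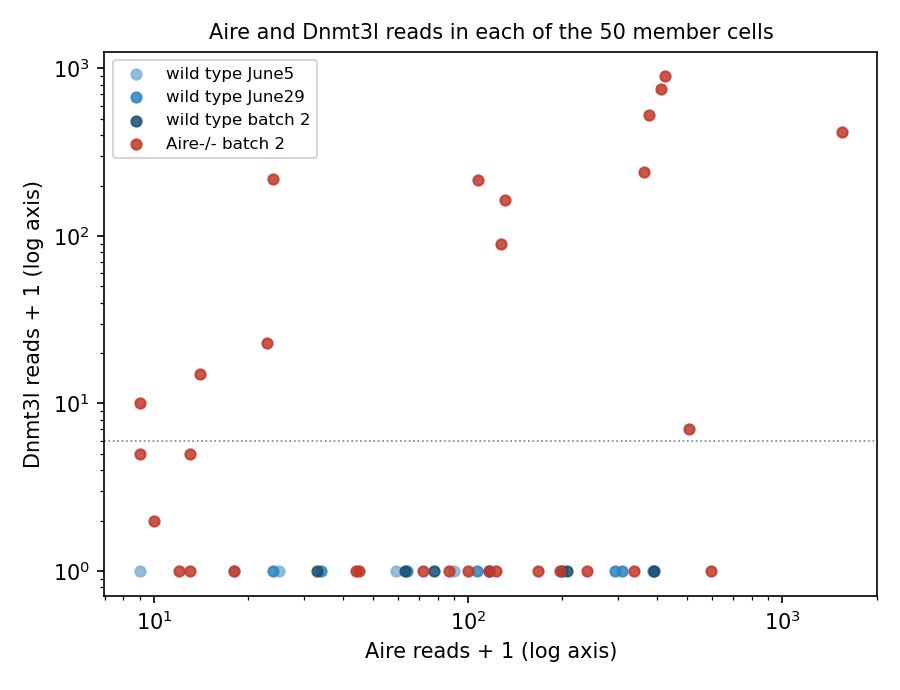
Each point is 1 of the 50 Aire-positive cells, with its Aire reads on the horizontal and its Dnmt3l reads on the vertical axis (both log axes, 1 added to each), coloured by set, and the dotted line marks 5 Dnmt3l reads. The 19 wild-type cells lie at 0 Dnmt3l reads, and 13 of 31 cells of the Aire-/- set lie at 5 or more.

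The other genes within 100 kb of Aire had reads in both genotypes or were too low to be tested. Pfkl, the liver type of phosphofructokinase, was at 274.3, 21.6, 136.4 and 524.8 CPM in the Aire-positive sums of June5, June29, batch 2 wild type and the Aire-/- set, and at 60.5, 191.4, 186.2 and 498.4 CPM in the sums with 0 Aire reads. It was higher in June5 and in the Aire-/- set and lower in the other two. Icosl, a costimulatory ligand, and 1810043G02Rik differed by 0.32 ± 1.56 and -1.49 ± 0.94 (SD, n = 4 sets) on the log2(CPM + 1) scale, as a mean over sets of Aire-positive over 0-read cells. Trpm2, a cation channel, was too low to be tested, at a mean of 0.298 CPM.

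The Aire-positive cells carried the tuft genes at levels close to those of the other cells. A median of 28, 25, 23 and 25 of the 30 tuft core genes had 5 or more reads in the Aire-positive cells of the 4 sets, against 23.5, 23, 23 and 24 in the cells with 0 Aire reads. The summed level of the 30 genes had medians of 35237, 26472, 26913 and 32629 CPM per Aire-positive cell and 27192, 25542, 29061 and 30483 CPM per 0-read cell. Every Aire-positive cell had 5 or more reads of Epcam, the epithelial adhesion molecule of the sort. Below 10000 CPM of tuft genes lay 2 of the 50 Aire-positive cells (June29 well 88 and batch 2 wild-type well 57) and 12 of the 235.

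None of the 30 tuft core genes passed edgeR's test in either direction. The test compared reads summed over the Aire-positive and the 0-read cells of each set, with the set as a block, and called 0 of 17604 genes other than Aire higher (0%) and 0 lower (0%) by edgeR's quasi-likelihood test at an adjusted p of 0.05. At an unadjusted p under 0.05, 0.591% of the genes were higher and 3.70% lower. With DESeq2, 79 were called higher and 613 lower. Of those 692 calls, all 4 Aire-positive sums were under 1 CPM for 150, and 18.4% had a mean of 20 CPM or more. The smallest adjusted p in edgeR was 0.767, shared by many genes, Cd74, Gnat3 and Aire itself among them. Aire chose the cells, so its value is no test of Aire. It had 0 reads in every 0-read sum, so edgeR did not call even so large a difference. A gene that did not pass is thus not shown to be alike in both classes. Every difference named below is a value that did not pass edgeR's test. DESeq2, with Benjamini-Hochberg adjustment, called some of them, with an adjusted p of 0.00447 for Cd74, 0.0036 for H2-Aa, 0.00349 for H2-DMb2, 0.0449 for H2-Ab1, 0.0218 for Relb, 0.0365 for Traf1, 0.0285 for Cd40, 0.0016 for Ccl22, 0.0106 for Tas1r3, 0.00592 for Ctsl, 0.0181 for Nr4a1, 0.0243 for Hspa1a and 0.00184 for Rsad2. Gnat3 (0.387) and Nfkbia (0.0767) passed neither tool.

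The lineage regulator and several effectors of the tuft programme differed by less than their spread between sets. Pou2f3, the lineage transcription factor, was at 384.6, 178.1, 352.2 and 500.3 CPM in the Aire-positive sums and 463.4, 299.9, 451.7 and 460.8 CPM in the others, a mean log2 difference of -0.31 ± 0.36 (SD, n = 4 sets). Avil, an actin-bundling protein of the tuft, differed by -0.02 ± 0.26. Trpm5, the cation channel of taste transduction, differed by -0.06 ± 0.33, and Gnb3, a G-protein beta subunit, by -0.11 ± 0.35. Alox5, an enzyme of leukotriene synthesis, differed by 0.10 ± 0.65. Dclk1, the kinase used as a tuft marker, was higher in all 4 sets, by 0.30 ± 0.18, as was Spib, a transcription factor, by 0.32 ± 0.19. Without the leading cell of each set these values were -0.24 and -0.10, and without cells with haematopoietic markers Dclk1 was at -0.48. The latter filter removed 5 of the 7 Aire-positive cells of June29. With thinned cells, where 2 Aire-positive cells were left in June5, Dclk1 was at -2.54. The cytokine gene Il25, which carries the reporter of the sort, varied most, at 101.3 against 55.8 CPM in June5, 24.2 against 45 in June29, 10.6 against 82 in batch 2 wild type and 132.5 against 84.1 in the Aire-/- set. The median over the 30 genes was 0.04, where the median over all genes tested was -0.29, and 4 of the 30, all at 20 CPM or more, were higher and 4 lower in all 4 sets, beside 5.63% and 6.17% of the 7420 genes at that level.

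Taste transduction genes, a part of the tuft programme, differed among themselves. Trpm5 and Gnb3, given above, and Plcb2, the phospholipase of the pathway (0.04 ± 0.26, SD, n = 4 sets), had both signs among the sets, whereas Gnat3, Tas1r3 and Itpr3 were lower in each. Gnat3, the taste G-protein alpha subunit gustducin, was at 1164, 959.3, 1192 and 1114 CPM in the Aire-positive sums and 1518, 1336, 2011 and 1886 CPM in the 0-read sums of June5, June29, batch 2 wild type and the Aire-/- set. It was lower in each set, by 0.59 ± 0.19 (SD, n = 4 sets) on the log2 scale, with an unadjusted p of 0.00317, and stood at 0.17 without cells with 2 or more haematopoietic markers of a list (17 of 50 and 39 of 235 cells). Tas1r3, a subunit of the sweet and umami receptors, was read in 12 of 50 Aire-positive and 87 of 235 other cells, with a mean log2 difference of -1.90 ± 0.72. Itpr3, the calcium release channel of the pathway, differed by -1.76 ± 0.93. Of the 9 taste genes with a mean of 20 CPM or more, 4 were lower in all 4 sets and 0 higher, beside 6.17% and 5.63% of all genes at that level. The median over the 11 taste genes tested was -0.40, near the -0.29 of all genes. A single cell held 79.5% of the Aire-positive Gnat3 reads in June29 and 66.2% in batch 2 wild type. Bitter receptor genes (Tas2r) with 1 or more reads, a count not corrected for depth, had medians of 8, 4, 2 and 3 per Aire-positive cell. The medians were 5, 5, 4 and 5 in other cells, with overlapping ranges. Runx1, a transcription factor of the core list, was lower in all 4 sets as well, by 0.61 ± 0.15.

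MHC class II genes, which medullary cells with Aire carry at high level, were higher in the Aire-positive sums, but 1 cell made much of that in each wild-type set. Cd74, the invariant chain of class II molecules, was at 580.3, 2550, 1762 and 1634 CPM in the Aire-positive sums and 193, 568.2, 541.9 and 947.6 CPM in the others. The mean log2 difference was 1.56 ± 0.57 (SD, n = 4 sets), with an unadjusted p of 0.000864. A single cell held 74.5%, 97.6% and 78.5% of these Cd74 reads in the 3 wild-type sets and 20.9% in the Aire-/- set. H2-Aa, a class II alpha chain, was at 456.3, 1930, 1156 and 941.2 CPM against 48.6, 287.5, 234.2 and 697.5 CPM, a difference of 2.17 ± 1.22, and -0.32 without cells with haematopoietic markers. H2-Ab1, its beta chain, differed by 1.72 ± 1.43 and was lower in the Aire-/- set, at 640.5 against 834.9 CPM. H2-Eb1 differed by 1.42 ± 0.97 and H2-DMb2, which loads peptide, by 2.69 ± 1.47. Ciita, the master activator of class II genes, had 0 reads in 2 of the 4 Aire-positive sums. Of the 9 class II genes at 20 CPM or more, 6 were higher in all 4 sets and 0 lower, beside 5.63% and 6.17% of genes at that level. The median of the 11 genes was 1.20, and by set 1.58, 2.16, 1.58 and 0.43.

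Read cell by cell, the class II difference was uneven. The summed class II level had a median of 1410 CPM in the 5 June5 Aire-positive cells against 390.0 CPM in the 24 others, 188.2 against 342.2 in June29, 2568 against 701.5 in batch 2 wild type and 2690 against 1431 in the Aire-/- set. The ranges overlapped in every set. In June29 the Aire-positive median was the lower one, and only well 88, at 69585 CPM, lifted the sum.

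**Figure D3:**
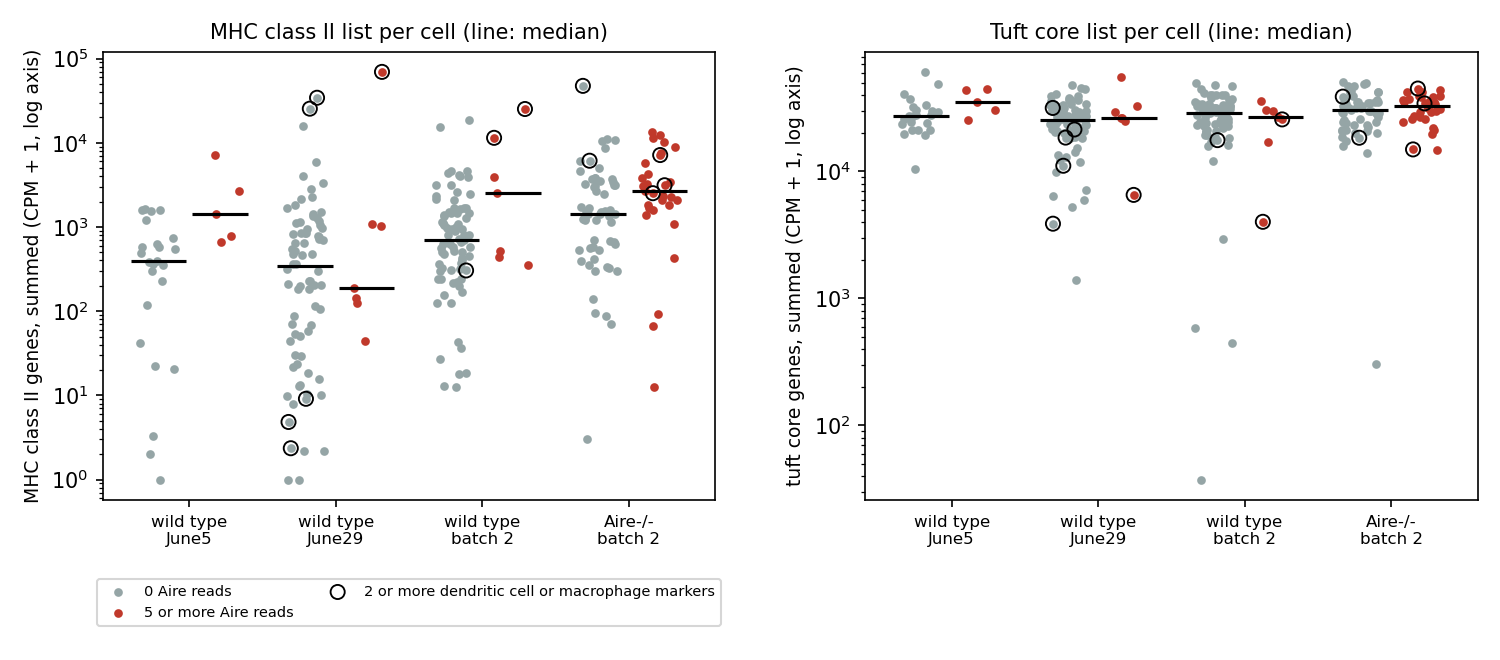
Each point is 1 cell, with the summed level of the 11 MHC class II genes (left) or the 30 tuft core genes (right) on a log axis (CPM + 1), cells with 0 Aire reads in grey and Aire-positive cells in red, lines at the medians and circles around cells with 2 or more dendritic cell or macrophage markers. The highest class II cell of June29, of batch 2 wild type and of the Aire-/- set is circled, and the tuft level of most cells of both classes lies above 10000 CPM.

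In the Aire-positive sums, dendritic cell and macrophage markers were higher together with class II genes in every set but June5. Few cells carried these markers. They were at 4219 CPM in June29 well 88, and at 1779 and 240.1 CPM in batch 2 wild-type wells 54 and 57. The other Aire-positive cells of those sets were at 42.1 CPM or less. Well 180 of the Aire-/- set was at 13190 CPM. Of 12 dendritic cell and macrophage markers, 9 were tested, and 2 or more had at least 5 reads in 6 of 50 Aire-positive cells and 8 of 235 others. Their summed level in the Aire-positive sums was 3.61, 586.7, 226.1 and 668.2 CPM, and in the others 106.3 CPM in June5, 98.1 CPM in batch 2 wild type and 47.8 CPM in the Aire-/- set, with June29 the highest of them. Ptprc, which encodes the CD45 used to exclude cells in the sort, had 5 or more reads in 18 of 50 Aire-positive and 63 of 235 other cells. The gate acted on protein and not on RNA, so these reads alone do not mark a cell of another type. Without cells with 2 or more dendritic cell or macrophage markers, the Cd74 difference was -0.57 on the log2 scale. It was -1.45 without cells with 2 or more haematopoietic markers of any list, in wild type mostly the B cell list. On the first of these, the medians of the summed class II level were 1410 against 390.0 CPM in June5, 165.7 against 364.2 in June29, 521.8 against 710.4 in batch 2 wild type and 2525 against 1430 in the Aire-/- set. The class II difference thus stayed in June5, which held no such cell, and in the Aire-/- set, and changed direction in batch 2 wild type.

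Single wells stood far apart. June29 well 88 had 63 Aire reads, 6 dendritic cell or macrophage, 5 thymocyte and 3 B cell markers, 2378 CPM of Ptprc, 752.4 CPM of Cd86, 2000 CPM of the chemokine receptor gene Ccr7, 71.9 CPM of Epcam and no Pou2f3 or Gnat3 read. Batch 2 wild-type well 57 had 25213 CPM of class II genes and 4 such markers, but no Ptprc read and 1415 CPM of Epcam. Well 180 of the Aire-/- set had 24040 CPM of Ccl22 and 11810 CPM of Ccr7 together with 1512 CPM of Trpm5, 578.8 CPM of Pou2f3 and 1172 CPM of Dclk1. Whether such wells held more than 1 cell was not tested, and no doublet caller was run.

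Genes that mark Aire-expressing medullary cells were mixed. The chemokine gene Ccl22 had 5 or more reads in June29 well 88 and in well 180 alone, and in 0 of 235 cells without Aire reads, which allows a share of up to 1.28%. Cd40, a receptor that drives medullary maturation, was read in 3 of 50 and 1 of 235 cells. Cldn3 and Cldn4, tight junction claudins of the Aire lineage, differed by 0.51 ± 0.47 and 1.09 ± 1.58 (SD, n = 4 sets), both lower in June29. Tnfrsf11a, which encodes RANK, was at 49.9, 0.0819, 73.1 and 38.7 CPM in the Aire-positive sums and 35.5, 11.7, 10.1 and 18.9 CPM in the others, lower in June29 alone. Fezf2, a regulator of other tissue-restricted genes in medullary cells, was lower in all 4 sets and was read in 4 of 50 Aire-positive cells and 30 of 235 others. The median over the 10 tested genes of this list other than Aire was 1.11, and 0.0492 without the cells with dendritic cell or macrophage markers. By set the medians were 0.24, 0.74, 0.30 and 0.72.

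In the RANK and NF-kB pathway, 5 of the 17 genes at 20 CPM or more were higher in all 4 sets (Ltbr, Relb, Nfkbia, Traf1 and Traf6) and 0 were lower, beside the same 5.63% and 6.17%. Nfkbia, the inhibitor that NF-kB induces, was at 982.3, 1333, 861.5 and 824.6 CPM against 439.8, 694.2, 622.0 and 485.3 CPM, a difference of 0.83 ± 0.29 (SD, n = 4 sets) with an unadjusted p of 0.00326. The other 3 of the 4 most abundant genes of the list had both signs among the sets. Tnfaip3 differed by 0.603 ± 1.085, Rela by -0.24 ± 0.68 and Ikbkb by 0.15 ± 1.85. Relb and Traf1 were named after their values were seen. Relb, the partner of the non-canonical pathway, differed by 2.08 ± 1.23 and was read in 13 of 50 and 27 of 235 cells. Traf1, an adaptor and target of the pathway, differed by 1.56 ± 0.68 and was read in 16 of 50 and 32 of 235 cells. Without cells with dendritic cell or macrophage markers Traf1 was at -0.31, and without those with haematopoietic markers Relb was at -0.03, while Nfkbia was above 0 under all 16 alternatives but only at 0.15 without the leading cell of each set. The pathway median was 0.42, and -0.12 without the cells with dendritic cell or macrophage markers.

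Few genes of the tissue-restricted antigens that Aire is known to induce had enough reads. Of 17 such genes in the tables, only 5 were high enough to test, with a median of -0.46. Members went both ways. Csn2 was read in 7 of 50 Aire-positive and 3 of 235 other cells and was above 0 under all 16 alternatives (0.44 to 2.84). Reg3g was read in 1 of 50 and 10 of 235 cells, with a DESeq2 adjusted p of 3.16e-05, and was lower under all 16. Csn1s1 was read in 2 of 50 and 2 of 235 cells, and Tff3 in 0 of 50 and 2 of 235. The 5 tested Aire-independent antigens had a median of -0.82. The 20 nuclear partners of Aire had a median of -0.24, and the 8 DNA methylation genes -0.37. Among the latter, Tet3, a demethylating enzyme, was lower in all 4 sets, by 1.21 ± 0.70 (SD, n = 4 sets), and Dnmt3a, an enzyme that Dnmt3l assists, differed by 0.20 ± 1.69, with both signs among the sets.

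Of the MHC class I genes, those for the main chains differed in 1 direction in each set. H2-D1 and H2-K1, class I heavy chains, and B2m, their common light chain, were each higher in all 4 sets, by 0.25 ± 0.10, 0.31 ± 0.18 and 0.39 ± 0.26 (SD, n = 4 sets). H2-D1 stood at 9024, 5373, 8405 and 11110 CPM against 6923, 4486, 7512 and 9717 CPM. All 50 Aire-positive and all 235 other cells had 5 or more reads of these genes. The class I median was 0.17, but -0.24 without cells with dendritic cell or macrophage markers and -0.13 with the plate as a further block, and 4 of the 10 genes were higher in all 4 sets. H2-D1 and H2-K1 kept their sign under all 16 alternatives, and B2m was at -0.06 with thinned cells. The interferon response genes had a median of -0.59, and by set -1.05, 0.33, 0.07 and -0.48. Oasl2, an interferon-induced gene, was at 1.92 in June29 and -1.12 in June5, and Irf7, an interferon-induced transcription factor, and Rsad2, an antiviral enzyme, were lower in all 4 sets, by 0.73 ± 0.35 and 2.07 ± 0.36.

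Lists for the other epithelial types had medians near or under that of all genes: -0.55 for mTEC low, -0.48 for corneocyte-like, -0.23 for cortical, -1.41 for ciliated, -0.21 for neuroendocrine-like and -0.40 for microfold-like cells. Cell cycle genes had a median of -0.66. The lists for other cell types gave 1.05 for dendritic cells and macrophages, 0.34 for B cells, -0.49 for thymocytes, -0.80 for fibroblasts and 0.47 for endothelium, and costimulatory genes gave 0.74. None of the members of any list passed edgeR's test, whereas DESeq2 called 4 genes of the MHC class II list, 3 of the RANK and NF-kB pathway, 3 of the dissociation stress genes, 2 of the taste genes, 2 of the Aire-expressing mTEC list, 2 of the corneocyte-like list, 1 of the tuft core and at most 1 of any other list. With the sets pooled, Cd79b, counted in the B cell list, was read in 78% of the Aire-positive and 44.3% of the other cells. Ebf1, a transcription factor of the same list, went the other way, with 10 of 50 and 74 of 235 cells, and Cd79a was read in 1 of 50 and 3 of 235 cells.

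**Figure D4:**
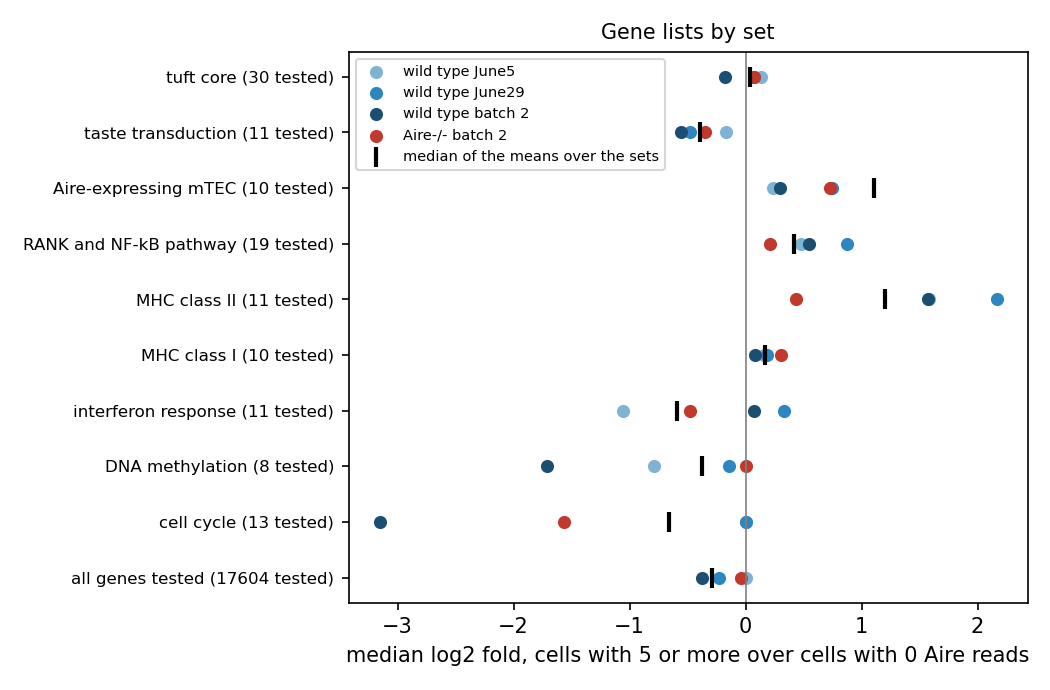
Each row is a gene list and each point the median log2 difference of its tested genes in 1 set (Aire-positive over 0-read cells, horizontal axis), with the median of the mean over the 4 sets marked. The MHC class II medians lie from 0.43 to 2.16, the tuft core medians from -0.18 to 0.13, and the median over all genes tested at -0.29.

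The Aire-positive cells of the June sets were also deeper and lower in mitochondrial reads. Median depth was 1501755 against 503210 gene reads in June5 and 1683836 against 1103055 in June29, and 704015 against 558208 and 634558 against 625490 in the batch 2 wild-type and Aire-/- sets. Mitochondrial reads took medians of 2.87 against 8.18% in June5 and 3.08 against 9.78% in June29, and 4.16 against 4.14% and 3.66 against 3.4% in batch 2. At equal depth the medians were 5354 against 4013 genes in June5, 4638 against 3450 in June29, 4222 against 3764 in batch 2 wild type and 3940 against 4060 in the Aire-/- set. The part of depth in the differences of the June sets was not tested. The 14 dissociation stress genes, which rise in cells on dissociation, had medians of -1.24, 0.29, 0.37 and 0.33 by set, under 0 in June5 alone. Nr4a1 was higher in all 4 sets, by 1.28 ± 0.42 (SD, n = 4 sets), but at -1.20 without cells with haematopoietic markers, and Hspa1a was lower, by 1.78 ± 0.88.

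By the rule for genes with the same sign in all 4 sets, the highest-ranked genes were Myo5a, Gsdmd, Car12, Tmem39a, Fra10ac1, Tns3, Fbxo28, Tmem25, Gpr18 and Nagpa. Their reads came mostly from few cells. Myo5a, a myosin motor, was at 20.3, 65.9, 91.4 and 5.20 CPM against 2.42, 8.86, 11.3 and 0.0244 CPM, and 1 cell in each set held 99.1% or more of its Aire-positive reads. The lowest-ranked were Ldhd, Snhg11, Ctsk, Dusp6, Rev3l, Rmnd5a, Camsap1, Ptprk, Gm36947 and Rsad2. Ldhd, a D-lactate dehydrogenase, had 0 reads in the Aire-positive sums of June5 and June29 and 8.13 and 37.1 CPM in the others. Those reads came from few cells too, with Ldhd read in 1 of 24 June5 and 6 of 76 June29 cells with 0 Aire reads. The 10 lowest-ranked genes were read in 10 (Gm36947) to 52 (Ptprk) of the 235. Absence from 5 or 7 Aire-positive cells is thus not shown to be a loss. Ctsl, the protease cathepsin L, was at 147.6, 66.4, 30.5 and 59.5 CPM against 647.6, 114.4, 132.9 and 299.7 CPM, lower in all 4 sets, by 1.83 ± 0.71 (SD, n = 4 sets).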

How the data were processed

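The authors deposited raw read counts per gene for each well (48887 entries, 92 of them ERCC spike-ins, which were left out of gene reads), made with STAR and featureCounts 1.5.3 of Subread on GRCm38, per the submitters' processing notes. A deposited table of scores for 292 wells was used only as a filter on wells in an alternative, and the authors' table of wells gave the plates (a batch number, in no measured unit). Raw counts are not corrected for depth, and Smart-seq2 counts reads, not molecules, so few molecules can give many reads.

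Of 319 samples, 314 were single-cell wells, of which 301 passed the filter on reads, genes and mitochondrial share. Well 173 of the Aire-/- set was left out, as its Aire level was far above the others (2542 CPM) and its tuft genes low. No doublet caller was run. No wells held identical counts. The members and gene lists were chosen with earlier results of these data known.

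Reads of Aire-positive and 0-read cells were summed by set (8 sums) and tested with edgeR 4.0.16 (TMM, glmQLFit with robust spread, set as a block, Benjamini-Hochberg over all genes tested, Aire included but left out of the 17604 counted) in R 4.3.3, after tests on simulated data. DESeq2 1.42.0 was an alternative. Log2 differences in the text are per-set values of log2((CPM + 1)/(CPM + 1)), averaged over sets, which understates low genes. Genes with 20 CPM or more have that mean over the 8 sums. A gene was read in a cell at 5 or more reads, a 0 share allows 3 counts, and intervals are 95% Clopper-Pearson. Depth is given per set with the report.

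Named genes were Aire, Dnmt3l, genes within 100 kb, up to 4 of the most abundant members of each list, and, as fewer than 10 passed in a direction, the 10 genes per direction of 20 CPM or more with 1 sign in all 4 sets, ranked by their smallest difference. Fezf2, Cd40, Relb, Traf1, Ptprc, Epcam, Pou2f3, Dclk1, Il25, Ctsl, Tas1r3, Itpr3, Nr4a1, Hspa1a, H2-DMb2, Ciita, Runx1, Ltbr, Traf6 and the genes given for single wells were added after their values were seen.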

Additional observations from a re-analysis of the deposited data

Results flagged for a closer look

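Of the named genes and gene lists looked at, 13 (9.03%) had 1 set that stood apart from the other 3, and chance flags about 1 in 20 groups of 4. All are log2 differences of Aire-positive over 0-read cells in the set named. Dnmt3l differed by 2.37 in the Aire-/- set and by 0 in the wild-type sets, where both sums held 0 reads; this difference between genotypes was not tested. In June29, B2m stood at 0.77, Ctsl at -0.78, Col17a1 at -3.65, Pdgfrb at -3.74 and Pax5, a B cell transcription factor, at 4.29. In batch 2 wild type, Alox5 stood at -0.87, Cd4 at 3.4, Cd79a at 1.33 and Dcn at -2.86. In June5, Tek stood at 2.06 and Ier2 at -1.11. In the Aire-/- set, Runx1 stood at -0.39.

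Aire reads were also present in wells outside the comparison. The 50-cell wells held 15.3 CPM (wild type, with no Dnmt3l read) and 25.9 CPM (Aire-/-, with 35.2 CPM of Dnmt3l). Which genotype each of these wells had is uncertain, since their titles and their label text name different count tables. The well of the Aire-/- set that was left out of the 50 cells held 2542 CPM of Aire and 653 CPM of Dnmt3l, with 117010 CPM of MHC class II genes and 2565 CPM of tuft core genes. The well with no cell had 0 Aire reads among 9892 gene reads, where 3 reads would be 303 CPM, so it gives no background at this depth.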

How the results depend on the processing

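No paired analysis was possible because the numbers in the labels name wells, not replicates shared between groups; the test already pairs the 2 classes of cell within each set. The share of Aire-positive cells stayed within its interval under each alternative that gave a value (1 or more, or 20 or more Aire reads, 10 CPM, thinned cells, wells of the score table, with the left-out well, and, chosen after seeing the data, Xist-only cells, of which June29 had none). DESeq2 called 79 genes higher and 613 lower where edgeR called 0 and 0, so the number of calls rests on the tool, and at an unadjusted p under 0.05 edgeR's counts ranged from 31 to 361 higher and 263 to 2148 lower over the alternatives. In thinned cells the Aire class was read again from the thinned reads, which left 2 Aire-positive cells in June5. The tuft core median was -0.20 with thinned cells and -0.16 without cells with haematopoietic markers. The median of the Aire-expressing mTEC list was 0.75 with thinned cells, 0.65 with the plate as a further block, -0.16 without cells with haematopoietic markers and 0.0492 without cells with dendritic cell or macrophage markers, and 0.79 to 1.44 on leaving out a set. The MHC class II median was -0.58 and 0.18 without the same 2 kinds of cell. The plate block, the removal of dendritic cell and macrophage markers and the removal of each gene's leading cell were chosen after seeing the data. Of the named genes, 36 changed sign without cells with haematopoietic markers, 25 without those with dendritic cell or macrophage markers and 54 without the leading cell, which removes reads from the Aire-positive sums alone. With 5 and 7 Aire-positive cells in the wild-type sets, single cells decide many sums. The removal of cells with haematopoietic markers took out 2 of the 5 in June5 and 5 of the 7 in June29.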
